A study of Mus musculus with 22 samples.

Results

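The genes described here are the regulators of mitochondrial biogenesis around the PGC-1 coactivators and the estrogen-related receptors (ERR). They were chosen by name: every gene whose symbol in the count tables was Ppargc1a, Ppargc1b, Perm1, Esrra, Esrrb, Esrrg, Ppara, Nrf1, Gabpa or Tfam. All 10 were found among the 48709 genes of both tables, and all 10 passed the filter on low counts in both experiments. RNA of E13.5 mouse heart ventricles had been sequenced in 2 experiments, as 18 libraries from 6 groups of 3. In the first experiment, LIN9 KO ventricles (Nkx2.5-Cre, Lin9 fl/fl) were set against LIN9 wt ventricles, and in the second the deletion of Lin9 was crossed with that of Sav1. LIN9 is a core subunit of the MuvB complex, which controls cell cycle genes, and SAV1 is a scaffold protein of the Hippo pathway. The comparisons ask how the loss of either protein, or of both, alters transcription in the embryonic heart.

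The groups of the second experiment were control (Lin9 fl/+, Sav1 +/+), LIN9 KO (Lin9 fl/fl, Sav1 +/+), Sav1 KO (Lin9 fl/+, Sav1 fl/fl) and double KO (Lin9 fl/fl, Sav1 fl/fl), all with Nkx2.5-Cre. The LIN9 wt ventricles of the first experiment carried Lin9 fl/+ and Cre as well, and are called control below. Hence every control also has a floxed Lin9 allele that Cre can delete, although the sample labels call the genotype wild-type. Nkx2.5-Cre is active in early cardiac precursors, and the paper measured its recombination in cardiomyocytes. Whether other cells of the ventricle, such as blood cells, keep their alleles is not stated. The mice were on a C57/Bl6 background. Libraries were made in triplicates that are not stated to be separate embryos. A caption of the paper counts the 2 comparisons of LIN9 KO with LIN9 wt as 2 biological replicates with a triplicate each, by which an experiment would be a single biological replicate. The p-values therefore measure the spread between these samples, which was uneven. A chi-square per gene, a measure of how far 2 libraries of a group differ, ran from 22.5 to 36.4 in LIN9 KO of the first experiment. It was taken on raw counts and so grows with depth, which was lower in the second experiment. There, LIN9 KO ran from 7.28 to 25.7, and no other group went above 8.67. In the LIN9 KO groups of both experiments the summed level of erythroid markers, given below, also spread widely. The lowest chi-square was 1.25, between control replicates 2 and 3 of the second experiment. What part of the spread is technical was not tested. Libraries of the first experiment held 9485599 to 9615274 counts and those of the second 2770741 to 2999877. A single count therefore stood for at most 0.108 CPM (counts scaled to library size) in the first and at least 0.328 CPM in the second experiment.

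PGC-1 alpha (Ppargc1a) and PGC-1 beta (Ppargc1b) are transcriptional coactivators: they bind no DNA themselves but dock on nuclear receptors such as the ERRs and PPAR alpha, and on nuclear respiratory factor 1 (NRF-1). ERRs and PPAR alpha switch on genes of fatty acid oxidation and the respiratory chain. NRF-1 and the GA-binding protein (GABP) act on nuclear genes of respiration and on Tfam. The product of Tfam packages mitochondrial DNA and is a transcription factor for it. In the heart this network is known for the growth of mitochondrial capacity before and after birth, when the cardiomyocyte turns from glucose and lactate to fatty acids.

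As a check of the labels, the count of Lin9 in the first experiment was 29.8, 21.39 and 25.6 CPM in the control and 21.36, 21.3 and 19.2 CPM in the LIN9 KO libraries. The second gave 29.2, 28.1 and 23.2 CPM in the control, 13.1, 15.4 and 17.9 CPM in the LIN9 KO, 19.2, 31.4 and 25.6 CPM in the Sav1 KO and 23.5, 26.0 and 18.5 CPM in the double KO libraries. The LIN9 KO libraries lay below the controls in both experiments, though only narrowly in the first, with a log2 fold change of -0.80 (SE 0.19; edgeR, Benjamini-Hochberg adjusted p = 0.0027) in the second but -0.31 (SE 0.14; edgeR, adjusted p = 0.13) in the first. The double KO libraries overlapped with the Sav1 KO libraries (-0.16; edgeR, adjusted p = 0.586) and lay above those of LIN9 KO (0.56, SE 0.20; edgeR, adjusted p = 0.238). Sav1 in the second experiment read 54.5, 56.2 and 61.9 CPM in the control, 51.9, 49.8 and 47.3 CPM in the LIN9 KO, 43.0, 36.1 and 43.0 CPM in the Sav1 KO and 43.9, 40.5 and 42.3 CPM in the double KO libraries. Each of the 6 libraries with a Sav1 deletion lay below each of the 6 without it. The difference did not pass the test in Sav1 KO against control (-0.50, SE 0.12; edgeR, adjusted p = 0.318) or in double KO against LIN9 KO (-0.23, SE 0.12; edgeR, adjusted p = 0.464). It did in double KO against control (-0.44, SE 0.12; edgeR, adjusted p = 0.00873), which includes the Lin9 deletion, and LIN9 KO alone lay below control for Sav1 as well (-0.21, SE 0.12; edgeR, adjusted p = 0.225). Both counts cover the whole gene, of which Cre removes 1 exon, and 28.1% of the exonic length of Sav1 lies inside genes on the other strand, mostly Atl1. They therefore check the deletions only in part, and for Lin9 the double KO libraries are described as labelled.

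When levels were divided by exonic length, the order in control ventricles of the first experiment was led by Esrra, with 27.9 ± 1.42 CPM per kb (SD, n = 3). It was followed by Gabpa (21.6 ± 0.677), Ppargc1a (19.1 ± 1.63), Tfam (17.0 ± 0.365) and Esrrg (15.6 ± 0.859 CPM per kb). Lower levels were found for Ppargc1b (8.14 ± 0.749), Nrf1 (6.87 ± 0.125), Perm1 (2.71 ± 0.455), Esrrb (2.63 ± 0.126) and Ppara (1.23 ± 0.207 CPM per kb). Exonic length is only a rough scale here, because counts behaved as if taken over whole gene spans, introns included. Of 482 protein-coding genes with exons inside an intron of a gene on the other strand, 94% had 0 counts in all 18 libraries, against 18% of 14307 genes not under another. Among neighbours in this order, the libraries of Ppargc1a and Tfam overlapped, as did those of Perm1 and Esrrb. The control of the second experiment had Esrra in front again (28.6 ± 2.31 CPM per kb) and Ppara last (1.54 ± 0.429). There, Gabpa (22.8 ± 1.6), Ppargc1a (21.0 ± 2.97), Esrrg (19.6 ± 5.14) and Tfam (15.2 ± 1.99 CPM per kb) each overlapped with the next. With Lin9 deleted in the first experiment, Ppargc1a stood at 11.1 ± 1.81 and Esrrg at 8.72 ± 1.02 CPM per kb, both below Tfam (15.7 ± 0.37). The plot of levels per exon length shows all 6 groups.

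**Figure D1:**
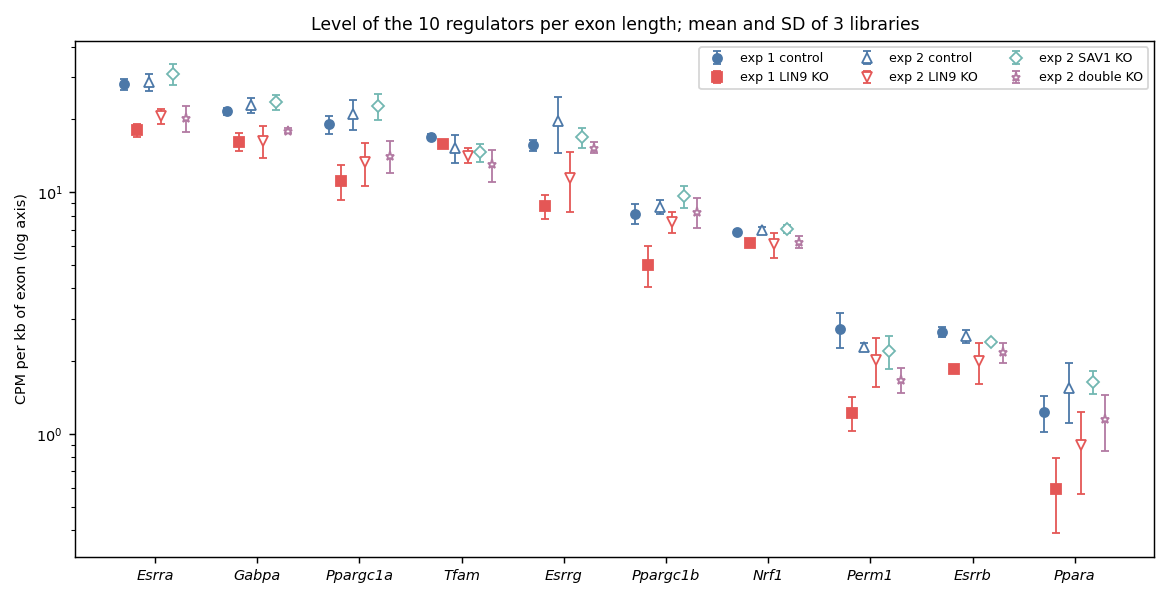
Level of each regulator in CPM per kb of exon (log axis) in the 6 genotype groups; symbols are means and bars the SD of 3 libraries, and genes are ordered by their level in the control of the first experiment. Levels span from 27.9 CPM per kb for Esrra to 1.23 for Ppara in that control.

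The promoters of the regulators are shown because several of these genes fell together in LIN9 KO ventricles and are known to control one another. Of the 10 regulators, 9 were found in the RefSeq promoter table (GRCm38.p6), with 14 promoters of 300 bases, from 250 bases before to 50 after the start. Printed are those of Ppargc1a (chr5:51567676-51567975, minus strand), Esrra (chr19:6921759-6922058, minus strand), the first listed of Esrrg (chr1:187608756-187609055, plus strand), Ppara (chr15:85735526-85735825, plus strand) and Tfam (chr10:71237995-71238294, minus strand), each 5′ to 3′ along its gene. Each window covers the region before the start annotated in RefSeq and the first bases transcribed from it. The Ensembl gene used for counting can start elsewhere. That of Ppara starts at 85734983, so that its window lies wholly inside the gene, as do most of the windows of Tfam and Esrrg. Capitals mark matches to the motifs searched on both strands: the ERR element TNAAGGTCA, the NRF-1 element GCGCATGC, the GABP element CCGGAAGT, the cyclic AMP response element TGACGTCA, the CHR element TTTGAA or TTCGAA known from MuvB target genes, the TEAD element CATTCC known from YAP target genes, and the MEF2 element. The window of Ppargc1a held none of them.
Ppargc1a: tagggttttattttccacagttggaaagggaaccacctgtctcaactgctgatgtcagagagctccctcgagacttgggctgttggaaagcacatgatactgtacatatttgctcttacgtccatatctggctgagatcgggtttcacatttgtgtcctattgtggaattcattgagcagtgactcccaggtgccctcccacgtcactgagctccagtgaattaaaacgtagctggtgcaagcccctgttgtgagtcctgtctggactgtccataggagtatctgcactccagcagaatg
Esrra: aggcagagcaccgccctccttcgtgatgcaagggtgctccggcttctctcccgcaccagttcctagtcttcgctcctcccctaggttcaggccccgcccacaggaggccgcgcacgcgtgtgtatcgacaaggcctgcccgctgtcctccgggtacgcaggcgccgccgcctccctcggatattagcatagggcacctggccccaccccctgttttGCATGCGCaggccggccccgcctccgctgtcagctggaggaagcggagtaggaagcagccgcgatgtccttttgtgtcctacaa
Esrrg: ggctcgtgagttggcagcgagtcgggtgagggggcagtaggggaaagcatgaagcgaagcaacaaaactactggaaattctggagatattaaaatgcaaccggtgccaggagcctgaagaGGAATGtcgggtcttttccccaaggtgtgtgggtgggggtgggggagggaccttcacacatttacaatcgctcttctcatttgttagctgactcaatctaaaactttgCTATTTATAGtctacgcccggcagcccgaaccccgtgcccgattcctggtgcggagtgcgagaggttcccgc
Ppara: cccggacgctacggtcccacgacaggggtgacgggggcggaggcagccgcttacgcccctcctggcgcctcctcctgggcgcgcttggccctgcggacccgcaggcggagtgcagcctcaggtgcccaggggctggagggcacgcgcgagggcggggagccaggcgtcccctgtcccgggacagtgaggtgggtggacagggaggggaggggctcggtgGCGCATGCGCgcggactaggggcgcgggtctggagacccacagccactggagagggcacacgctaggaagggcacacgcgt
Tfam: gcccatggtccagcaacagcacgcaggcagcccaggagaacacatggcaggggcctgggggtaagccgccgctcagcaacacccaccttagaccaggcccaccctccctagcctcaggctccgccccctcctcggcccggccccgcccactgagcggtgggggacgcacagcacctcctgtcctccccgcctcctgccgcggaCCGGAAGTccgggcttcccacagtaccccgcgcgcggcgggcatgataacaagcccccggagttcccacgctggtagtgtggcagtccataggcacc
Counted from the start, the Esrra promoter held the NRF-1 letters on the other strand at -34 to -27. In the Ppara promoter the same letters stood at -31 to -24 and, on the other strand, at -29 to -22, so that both matches overlapped. This motif was in 2 of the 14 promoters, against 2.71% of all 32851 promoters of that length. The GABP letters stood at -47 to -40 of the Tfam promoter (1 of 14, against 3.89% of all). The promoter printed for Esrrg had a TEAD match on the other strand at -130 to -125 (1 of 14, against 14.7%) and a MEF2 match at -22 to -13 (2 of 14 with Nrf1, against 3.19%). A CHR match was found in 2 other promoters of Esrrg (2 of 14, against 19.2%). Neither the ERR element (0 of 14, against 1.28% of all) nor the cyclic AMP response element (0 of 14, against 1.79%) was present. A match is a description of these letters and no evidence of binding, and the letters may be present outside the window.

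Deletion of Lin9 lowered most of these regulators in the first experiment. There, 8 of the 10 fell in LIN9 KO ventricles (edgeR's quasi-likelihood test, Benjamini-Hochberg adjusted p under 0.05), against 9.78% of the 19752 genes tested that were called lower. All 3 LIN9 KO libraries lay below all 3 controls for 10 of 10, against 18.1% of all genes. The median log2 fold change of the 10 was -0.67, beside 0.0156 over all genes tested. In the second experiment, Ppargc1a, Esrra, Esrrg and Gabpa fell in LIN9 KO compared with control (4 of 10, against 10.5% of 17675 genes), 6 of 10 did not overlap (16.8% of all genes), and the median was -0.41, beside 0.0086. None of the 10 rose in either comparison. Without control replicate 3 of the first experiment, 2722 genes passed the threshold in either direction instead of 4131. DESeq2 also called 8 and 4 of the regulators. In the same LIN9 KO libraries of the first experiment the summed level of cardiomyocyte markers was 11500 ± 2040 CPM against 22600 ± 260 in the control, and that of erythroid markers 57500 ± 29400 against 9360 ± 1530 CPM (SD, n = 3). In the second these were 12700 ± 731 against 25400 ± 634 and 30300 ± 8910 against 4660 ± 595 CPM. The plot by library holds the values of all 10 regulators.

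**Figure D2:**
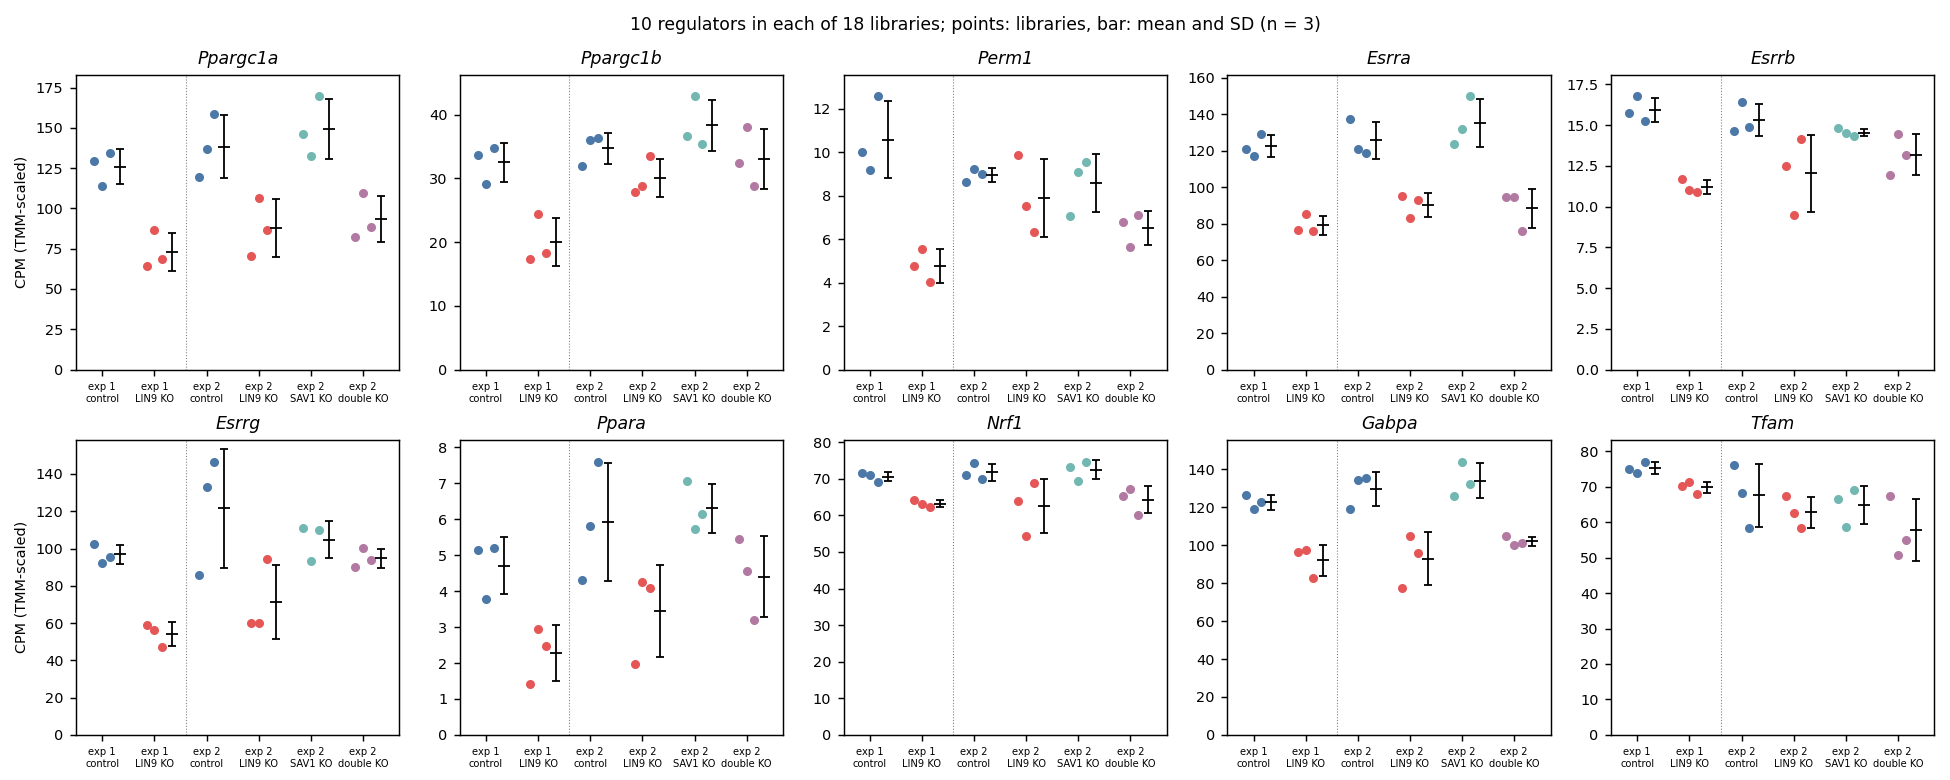
CPM of each regulator (vertical axis, from 0) in each of the 18 libraries by genotype group; points are libraries and the bar beside them is the mean and SD of 3, with a dotted line between the experiments. The LIN9 KO points lie below the control points for 10 of 10 regulators in the first and for 6 of 10 in the second experiment.

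Among the coactivators, Ppargc1a (ENSMUSG00000029167, chromosome 5 from 51454250 to 51567726, minus strand) read 129, 114 and 134 CPM in the control and 64.2, 86.6 and 68.4 CPM in the LIN9 KO libraries of the first experiment. The highest LIN9 KO library, replicate 2, was still well below the lowest control. The log2 fold change was -0.78 (SE 0.12; edgeR, Benjamini-Hochberg adjusted p = 3.13e-04). In the second experiment the control libraries read 119.6, 137 and 159 CPM, the LIN9 KO libraries 70.6, 106 and 86.8 CPM, the Sav1 KO libraries 146, 132 and 169 CPM and the double KO libraries 82.1, 109 and 88.5 CPM. All 6 libraries with Lin9 deleted were below all 6 without, and the Sav1 genotypes overlapped within each Lin9 genotype. Ppargc1a fell in LIN9 KO against control, with a log2 fold change of -0.65 (SE 0.15; edgeR, adjusted p = 0.00314). It also fell in double KO against Sav1 KO (-0.68, SE 0.15; edgeR, adjusted p = 0.00227) and in double KO against control (-0.57, SE 0.15; edgeR, adjusted p = 0.01). Without control replicate 3 the last value was -0.46 and no longer past the threshold (edgeR, adjusted p = 0.0506).

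Ppargc1b (ENSMUSG00000033871), the sister coactivator with a similar set of partners, read 33.7, 29.1 and 34.7 CPM in the control and 17.3, 24.3 and 18.3 CPM in the LIN9 KO libraries of the first experiment. These groups did not overlap, and the log2 fold change was -0.70 (SE 0.14; edgeR, Benjamini-Hochberg adjusted p = 0.00233). Libraries of the second experiment read 31.9, 35.95 and 36.29 CPM in the control, 27.9, 28.9 and 33.5 CPM in LIN9 KO, 36.7, 42.9 and 35.5 CPM in Sav1 KO and 32.4, 38.0 and 28.8 CPM in double KO ventricles. LIN9 KO overlapped with control and double KO with Sav1 KO, and LIN9 KO differed from control by a log2 fold change of -0.21 (SE 0.15, 95% interval -0.51 to 0.09; edgeR, adjusted p = 0.341). Perm1 (ENSMUSG00000078486), a muscle regulator that is itself induced by PGC-1 and ERR, read 9.99, 9.17 and 12.6 CPM in the control and 4.77, 5.56 and 4.01 CPM in the LIN9 KO libraries of the first experiment. Its control libraries were all above 9 and its LIN9 KO libraries all below 6 CPM. With a log2 fold change of -1.14 (SE 0.20, 95% interval -1.56 to -0.73; edgeR, adjusted p = 6.69e-04), Perm1 fell. Counts in the second were low, with 8.64, 9.24 and 8.99 CPM in the control, 9.85, 7.54 and 6.33 CPM in LIN9 KO, 7.06, 9.11 and 9.55 CPM in Sav1 KO and 6.81, 5.63 and 7.11 CPM in double KO ventricles, from 16 to 30 counts a library. LIN9 KO replicate 1 was the highest of the 12 libraries, so that LIN9 KO and control overlapped (log2 fold change -0.17, SE 0.25, 95% interval -0.68 to 0.34; edgeR, adjusted p = 0.691). The double KO libraries lay below the controls, but the difference did not pass the test (-0.46, SE 0.26; edgeR, adjusted p = 0.229). For both genes the difference between the experiments was not tested, since each was counted at its own depth and fitted separately.

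Of the receptors, ERR alpha (Esrra, ENSMUSG00000024955, chromosome 19 from 6910977 to 6921813, minus strand) is the principal partner of PGC-1 alpha on genes of oxidative metabolism. It read 121, 117 and 129 CPM in the control and 76.4, 85.0 and 75.7 CPM in the LIN9 KO libraries of the first experiment, a log2 fold change of -0.63 (SE 0.10; edgeR, Benjamini-Hochberg adjusted p = 3.55e-04). In the second, the controls read 137, 121 and 119 CPM, LIN9 KO 95.2, 82.9 and 92.8 CPM, Sav1 KO 124, 132 and 149.7 CPM and double KO 94.7, 94.7 and 76.1 CPM. The libraries with Lin9 deleted stayed below 100 CPM in both experiments and those without it above 115 CPM. Esrra fell in LIN9 KO against control (-0.48, SE 0.11; edgeR, adjusted p = 0.00224), in double KO against Sav1 KO (-0.61, SE 0.11; edgeR, adjusted p = 1.71e-04) and in double KO against control (-0.50, SE 0.11; edgeR, adjusted p = 0.00156). Other genes, among them Trmt112 on the opposite strand, cover 3.74% of the exons of Esrra, and reads there were probably not counted. ERR beta (Esrrb, ENSMUSG00000021255), a receptor of the same family best known from trophoblast and embryonic stem cells, ranged from 15.3 to 16.8 CPM in control and from 10.9 to 11.7 CPM in LIN9 KO ventricles of the first experiment. It fell there (-0.51, SE 0.14; edgeR, adjusted p = 0.0159), but not past the threshold without control replicate 1 (-0.52; edgeR, adjusted p = 0.0519) or control replicate 2 (-0.47; edgeR, adjusted p = 0.0588). Its libraries of the second experiment ranged from 9.51 to 16.4 CPM, and LIN9 KO lay below control without passing the test (-0.35, SE 0.20; edgeR, adjusted p = 0.222).

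ERR gamma (Esrrg, ENSMUSG00000026610, chromosome 1 from 187608791 to 188214885, plus strand) is needed for the oxidative metabolism of the newborn heart. In the first experiment its control libraries read 103, 92.1 and 95.7 CPM and its LIN9 KO libraries 59.1, 56.4 and 47.0 CPM, with no overlap (log2 fold change -0.84, SE 0.11; edgeR, Benjamini-Hochberg adjusted p = 7.67e-05). The second experiment gave 85.7, 133 and 147 CPM in the control, 59.8, 60.0 and 94.2 CPM in LIN9 KO, 111, 93.1 and 109.8 CPM in Sav1 KO and 90.2, 100.3 and 93.8 CPM in double KO ventricles. Here LIN9 KO replicate 3 was above control replicate 1, and the control libraries spread more widely than those of any other group. Esrrg fell in LIN9 KO against control (-0.77, SE 0.21; edgeR, adjusted p = 0.0222). This call was lost without LIN9 KO replicate 1 (-0.68; edgeR, adjusted p = 0.0731) or replicate 2 (-0.69; edgeR, adjusted p = 0.0674) and without control replicate 2 (-0.74; edgeR, adjusted p = 0.0651) or replicate 3 (-0.62; edgeR, adjusted p = 0.056). It was also lost when these 6 libraries were fitted alone (-0.81; edgeR, adjusted p = 0.102). With Sav1 deleted, the deletion of Lin9 left Esrrg at a log2 fold change of -0.14 (SE 0.21; edgeR, adjusted p = 0.691). The difference between both effects, tested as the interaction of Lin9 and Sav1, was 0.63 (SE 0.30, 95% interval -0.03 to 1.29; edgeR, adjusted p = 0.764), and did not pass the threshold.

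PPAR alpha (Ppara, ENSMUSG00000022383), the receptor for fatty acids that drives their oxidation, had the lowest counts, 13 to 50 a library in the first and 6 to 22 in the second experiment. In the first it read 5.15, 3.79 and 5.19 CPM in the control and 1.41, 2.94 and 2.47 CPM in the LIN9 KO libraries, which did not overlap. Its log2 fold change was -1.05 (SE 0.27; edgeR, Benjamini-Hochberg adjusted p = 0.0121). The call was lost without LIN9 KO replicate 1 (-0.80; edgeR, adjusted p = 0.0581), control replicate 1 (-0.98; edgeR, adjusted p = 0.0573) or control replicate 3 (-0.97; edgeR, adjusted p = 0.0558). Controls of the second experiment ranged from 4.32 to 7.60 CPM and the LIN9 KO libraries from 1.97 to 4.26 CPM. Although these did not overlap, the difference did not pass the test (-0.78, SE 0.35, 95% interval -1.49 to -0.07; edgeR, adjusted p = 0.111). At this depth an interval of that width is compatible with the value of the first experiment as well as with nearly none.

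Among the DNA-binding factors, Gabpa (ENSMUSG00000008976, chromosome 16 from 84834925 to 84863779, plus strand) encodes the DNA-binding subunit of GABP. It read 127, 119 and 123 CPM in the control and 96.3, 97.3 and 82.6 CPM in the LIN9 KO libraries of the first experiment (log2 fold change -0.41, SE 0.10; edgeR, Benjamini-Hochberg adjusted p = 0.00842). The second experiment had 119, 135 and 135 CPM in the control, 77.5, 105 and 96.1 CPM in LIN9 KO, 126, 144 and 132 CPM in Sav1 KO and 105, 99.9 and 101 CPM in double KO ventricles. As with Ppargc1a and Esrra, no library with Lin9 deleted reached the lowest library without the deletion in either experiment. Gabpa fell in LIN9 KO against control (-0.48, SE 0.11; edgeR, adjusted p = 0.00168), in double KO against Sav1 KO (-0.39, SE 0.11; edgeR, adjusted p = 0.00904) and in double KO against control (-0.35, SE 0.11; edgeR, adjusted p = 0.0243). Against Sav1 KO the call was lost without Sav1 KO replicate 2 (-0.34; edgeR, adjusted p = 0.0605). Against control it was lost without double KO replicate 2 (-0.36; edgeR, adjusted p = 0.0525), control replicate 2 (-0.34; edgeR, adjusted p = 0.0709) or control replicate 3 (-0.31; edgeR, adjusted p = 0.0947), and DESeq2 did not make it (-0.35, adjusted p = 0.0593). Of the exonic length of Gabpa, 9.13% lies inside Atp5j on the opposite strand. Since genes that lie wholly inside others mostly had 0 counts, reads of that stretch were probably dropped rather than added to Gabpa.

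Nrf1 (ENSMUSG00000058440), which encodes NRF-1, ranged from 69.2 to 71.7 CPM in control and from 62.2 to 64.2 CPM in LIN9 KO libraries of the first experiment, a small gap without overlap that did not pass the test (log2 fold change -0.16, SE 0.09; edgeR, Benjamini-Hochberg adjusted p = 0.261). In the second experiment it ranged from 69.8 to 74.3 CPM in control and from 54.4 to 68.9 CPM in LIN9 KO ventricles (-0.20, SE 0.11; edgeR, adjusted p = 0.212). Tfam (ENSMUSG00000003923, chromosome 10 from 71225464 to 71238280, minus strand), the packaging and transcription factor of mitochondrial DNA, lay from 73.9 to 77.1 CPM in the control and from 68.1 to 71.3 CPM in the LIN9 KO libraries of the first experiment (-0.11, SE 0.09, 95% interval -0.31 to 0.09; edgeR, adjusted p = 0.468). In the second experiment, control (58.4 to 76.1 CPM) and LIN9 KO (58.5 to 67.3 CPM) overlapped (-0.10, SE 0.13; edgeR, adjusted p = 0.618). A p that misses the threshold does not show that values were equal. In the first and second experiment, the 95% intervals reached down to -0.36 and -0.43 for Nrf1 and to -0.31 and -0.36 for Tfam.

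With Sav1 deleted as well, 3 of 10 regulators fell in double KO compared with Sav1 KO (Ppargc1a, Esrra and Gabpa; against 11.6% of 17675 genes), and 5 of 10 did not overlap (19.2% of all genes). The median of the 10 was -0.30, beside 0.032 over all genes. The same 3 regulators fell in double KO compared with control (3 of 10, against 9.96% of all genes), where 6 of 10 did not overlap (17.6%) and the median was -0.35, beside 0.0345. Comparisons of the second experiment share libraries: double KO enters both of these, and the control enters the second of them as well as LIN9 KO against control. All 10 estimates were below 0 in each of the 4 comparisons that include the deletion of Lin9. The remaining 7 regulators differed by -0.51 (Ppara) to -0.14 (Esrrg) against Sav1 KO and by -0.46 (Perm1) to -0.07 (Ppargc1b) against control. Without control replicate 3 only Esrra was left of the 3 against control, with Ppargc1a at -0.46 (edgeR, Benjamini-Hochberg adjusted p = 0.0506) and Gabpa at -0.31 (edgeR, adjusted p = 0.0947). Against control, Tfam passed the threshold without double KO replicate 1 (-0.39; edgeR, Benjamini-Hochberg adjusted p = 0.038), and Esrrg without control replicate 1 (-0.56; edgeR, adjusted p = 0.0211).

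Sav1 deletion moved none of the 10 past the threshold with the count filter used. In the Lin9 fl/+ background, edgeR called 0 of 10 regulators in Sav1 KO against control (0.017% of all genes, 3 genes in all), 0 of 10 had an unadjusted p under 0.05 (3.92% of all genes) and DESeq2 called 0. Log2 fold changes ran from -0.22 (Esrrg) to 0.14 (Ppargc1b), with a median of 0.03 beside 1e-04 over all genes. With Lin9 deleted, edgeR called 0 of 10 in double KO against LIN9 KO (0.0113% of all genes, 2 genes in all), 0 had an unadjusted p under 0.05 (11.8% of all genes) and DESeq2 called 0. Here values ran from -0.29 (Perm1) to 0.42 (Esrrg, SE 0.22, 95% interval -0.06 to 0.89; edgeR, adjusted p = 0.49). Without a count filter, Esrrg passed the threshold in this comparison (0.42; edgeR, Benjamini-Hochberg adjusted p = 0.0455). The interaction of Lin9 and Sav1 was called by edgeR for 0 of 10 regulators and 0% of all genes, 0 of 10 had an unadjusted p under 0.05 (6.54% of all genes) and DESeq2 called 0. The interval for Ppargc1a in Sav1 KO against control was -0.19 to 0.41, and that for Esrra -0.12 to 0.33, so that larger shifts than these lay outside. Leaving out 1 library moved the small counts over all genes: to 0 for Sav1 KO against control without control replicate 2 or 3 or any Sav1 KO library, and to 15 for double KO against LIN9 KO without double KO replicate 2, 4 without LIN9 KO replicate 1 and 378 without LIN9 KO replicate 3. This count was 1 without double KO replicate 1 and 0 without double KO replicate 3 or LIN9 KO replicate 2. For the interaction it was 64 without LIN9 KO replicate 3 and 2 without control replicate 1, and no regulator was called with any of these libraries left out. The plot of fold changes sets the 7 contrasts of each regulator beside each other.

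**Figure D3:**
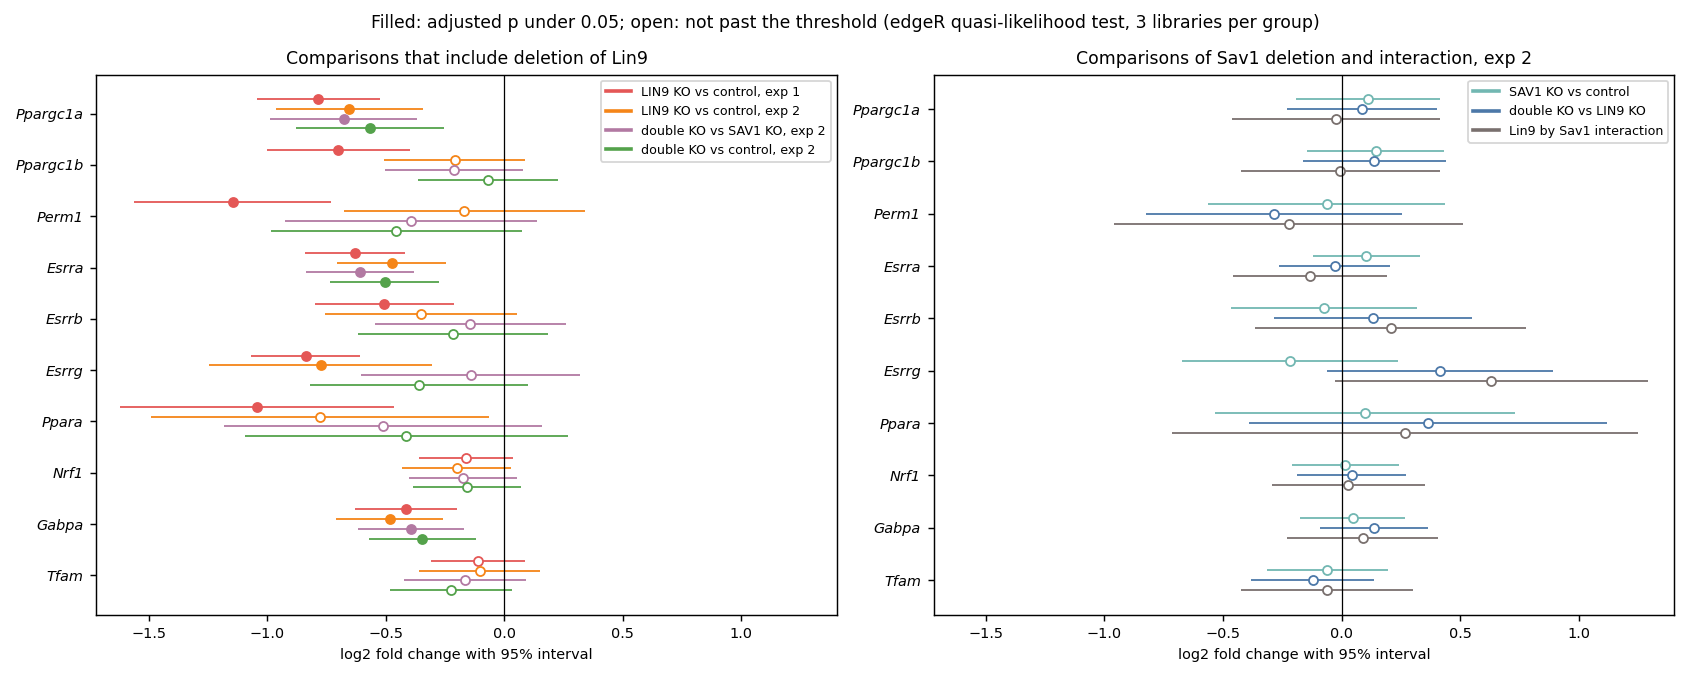
Log2 fold change (horizontal axis) of each regulator with its 95% interval, for the 4 comparisons that include the deletion of Lin9 (left) and for the Sav1 comparisons and the interaction (right); filled points passed an adjusted p of 0.05 in edgeR's quasi-likelihood test, with 3 libraries per group. On the left the filled points of Ppargc1a, Esrra and Gabpa appear in all 4 comparisons, and on the right all points are open.

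Other genes of the network were described from lists of textbook members. Over all genes tested, 11.1% rose and 9.78% fell in LIN9 KO ventricles of the first experiment, and 12.8% rose and 10.5% fell in the second, beside which the counts of each list can be read. Of 18 further coactivators, nuclear receptors and DNA-binding partners, 2 rose and 5 fell in LIN9 KO ventricles of the first experiment, with a median log2 fold change of -0.19 beside 0.0156 over all genes, and 1 rose and 3 fell in the second (median -0.02). Ppard, which encodes the related receptor PPAR delta, went from 28.5 ± 1.92 to 40.1 ± 5.98 CPM (SD, n = 3) in the first and from 26.9 ± 4.56 to 46.4 ± 5.11 CPM in the second experiment. It rose in both (0.49, SE 0.12, and 0.79, SE 0.16; edgeR, Benjamini-Hochberg adjusted p = 0.01 and 5.89e-04). Of 9 corepressors and other restraints on PGC-1, ERR and PPAR activity that could be tested, 1 rose and 0 fell in the first (median -0.04) and 2 rose and 0 fell in the second experiment (median 0.04), against 11.1% and 12.8% of all genes that rose. Nrip1, the corepressor RIP140 of these receptors, rose by a log2 fold change of 0.47 (SE 0.13; edgeR, adjusted p = 0.0159) and 0.39 (SE 0.13; edgeR, adjusted p = 0.0323). Of 16 nuclear genes for the transcription, replication and upkeep of mitochondrial DNA, 0 rose and 1 fell in the first (median -0.12) and 0 rose and 3 fell in the second experiment (median -0.17), against 9.78% and 10.5% of all genes that fell. None of these 16 fell in both, which the rule for naming genes required, so that none is named.

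Among 20 tested target genes of ERR and PGC-1 alpha, 1 rose and 14 fell in LIN9 KO ventricles of the first experiment (median -0.52) and 2 rose and 15 fell in the second (median -0.59), against 9.78% and 10.5% of all genes that fell. Idh3a, a subunit of the isocitrate dehydrogenase of the citric acid cycle, went from 440.3 ± 10.6 to 233 ± 20.6 CPM (SD, n = 3) in the first experiment, a log2 fold change of -0.92 (SE 0.11; edgeR, Benjamini-Hochberg adjusted p = 3.99e-05), and fell in the second too (-1.03; edgeR, adjusted p = 7.93e-09). Acadm, the dehydrogenase of medium-chain fatty acids, fell with log2 fold changes of -0.89 and -0.98, and Uqcrc1, a core subunit of respiratory complex III, with -0.85 and -0.73. Ckmt2, the mitochondrial creatine kinase of muscle, went the other way, from 8.32 ± 1.42 to 14.3 ± 2.89 CPM and from 5.98 ± 1.73 to 17.7 ± 1.09 CPM. It rose by 0.78 (SE 0.19; edgeR, adjusted p = 0.00724) and 1.55 (SE 0.22; edgeR, adjusted p = 5.34e-06). Of the target genes of PPAR alpha, 4 rose and 6 fell among 19 in the first (median -0.26) and 3 rose and 6 fell among 18 in the second experiment (median -0.04, or -0.15 without Ucp3, which had 0 counts in the 3 control libraries and 3 in all in LIN9 KO). Plin2, a coat protein of lipid droplets, rose (0.68 and 0.66). Acaa2, the thiolase that ends a round of fatty acid oxidation, fell (-1.06 and -0.95), as did the acyl-CoA thioesterase Acot2 (-0.65 and -0.55).

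Of 18 tested target genes of NRF-1 and GABP, 0 rose and 11 fell in the first (median -0.45) and 0 rose and 13 fell in the second experiment (median -0.49), against 9.78% and 10.5% of all genes that fell. Sdhc and Sdhb, subunits of succinate dehydrogenase, fell with log2 fold changes of -0.90 and -0.67 (Sdhc) and of -0.82 and -0.81 (Sdhb) in the first and second experiment. Cycs, the electron carrier cytochrome c, went from 132 ± 16.4 to 77.9 ± 3.43 CPM (SD, n = 3) and from 120.0 ± 11.7 to 58.0 ± 8.38 CPM, and fell in both (-0.76, SE 0.11; edgeR, Benjamini-Hochberg adjusted p = 1.72e-04, and -1.05, SE 0.13; edgeR, adjusted p = 5.26e-07). Cox5a, a subunit of cytochrome c oxidase, fell with -0.69 and -0.67. Cardiomyocyte markers were lower in the same libraries, as given for the regulators. The list holds Tfam as well, and several genes stand in more than 1 list. In double KO against Sav1 KO, 2 rose and 15 fell of 20 targets of ERR, 4 rose and 5 fell of 18 of PPAR alpha, and 0 rose and 14 fell of 18 of NRF-1 and GABP, with medians of -0.54, -0.18 and -0.59 (11.8% of all genes rose and 11.6% fell). Against control, 2, 4 and 0 rose and 16, 6 and 13 fell (10.7% and 9.96% of all genes), with medians of -0.58, -0.05 and -0.56, or -0.60 and -0.13 for ERR and PPAR alpha without Ucp3. In the comparisons of Sav1 deletion and in the interaction, edgeR and DESeq2 called 0 genes of any of these lists, and at an unadjusted p under 0.05 at most 4 genes of a list were found. For Sav1 deletion with Lin9 deleted these were 4 of 18 partners and 3 of 9 corepressors (11.8% of all genes), and for the interaction 4 of 18 and 2 of 9 (6.54% of all genes). Cpt1b, Cox4i1, Cox17 and Fbxw7 had 0 counts in all 18 libraries and were not tested. At least 99.2% of the exonic length of each lies under another annotated gene, so that their counts do not speak for their expression.

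**Figure D4:**
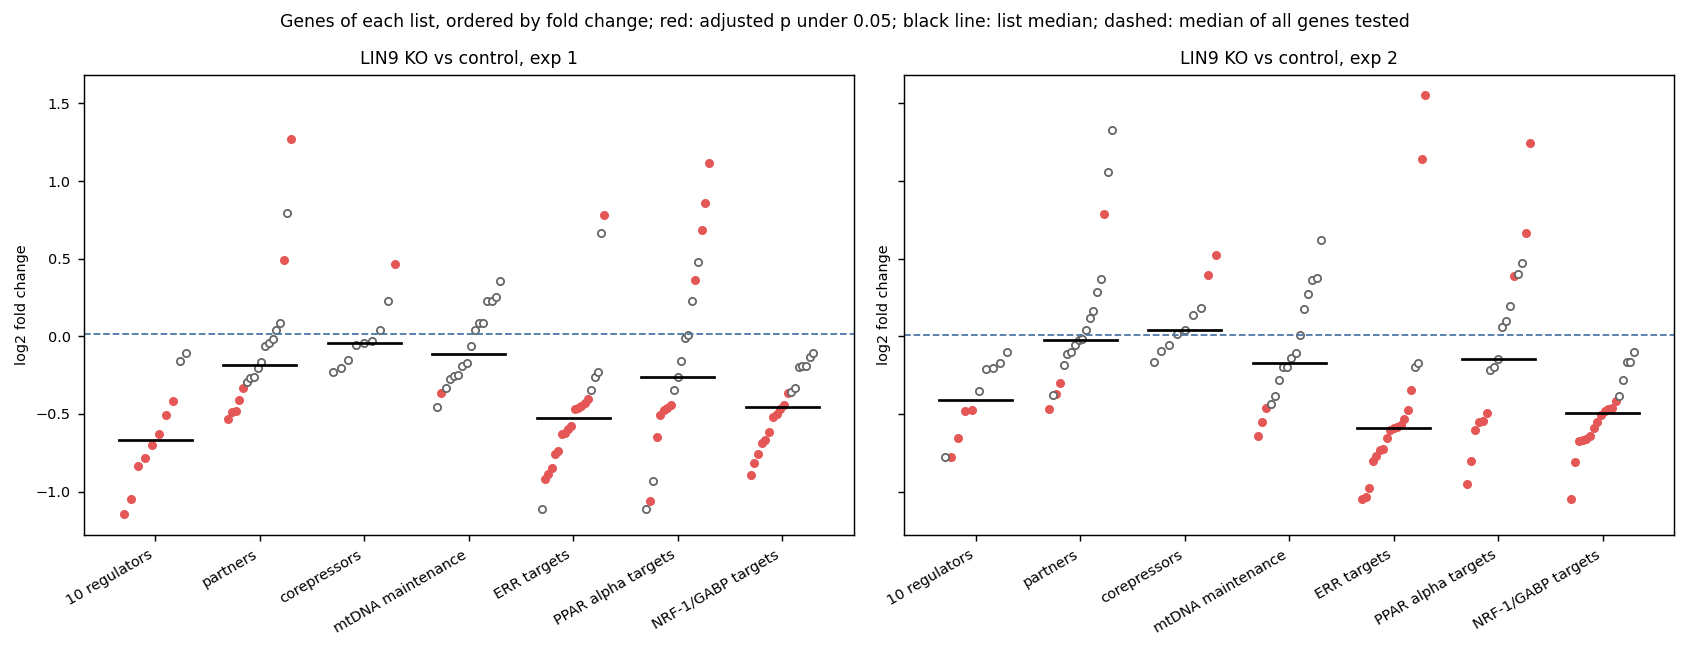
Log2 fold change (vertical axis) of every tested gene of the 7 lists in LIN9 KO against control, in the first (left) and second (right) experiment; red points passed an adjusted p of 0.05 in edgeR, black bars are list medians and the dashed line is the median of all genes tested. Ucp3 is not drawn in the second experiment, where its control count was 0, and most points of the ERR and of the NRF-1 and GABP targets are red and below 0.

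Markers of the cell types of the ventricle moved with the deletion of Lin9 too. In bulk tissue, fewer cells of a type and less RNA per cell cannot be told apart, which holds for every value given here. Of 10 cardiomyocyte markers tested, 7 fell and 0 rose in LIN9 KO ventricles of the first experiment (median log2 fold change -0.96), and 7 fell and 0 rose in the second (-0.98), against 9.78% and 10.5% of all genes that fell. Their summed level was 22260, 22700 and 22720 CPM in the control and 10670, 13820 and 9986 CPM in the LIN9 KO libraries of the first experiment. In the second it was 24640, 25630 and 25820 CPM in the control, 13520, 12230 and 12280 CPM in LIN9 KO, 26830, 26430 and 27630 CPM in Sav1 KO and 12200, 14210 and 15130 CPM in double KO ventricles. All libraries with Lin9 deleted were therefore below all others, as for Ppargc1a, Esrra and Gabpa. Myh7, the most abundant of these markers, fell with log2 fold changes of -1.06 and -0.92, the ventricular light chain Myl2 with -1.48 and -1.65 and the troponin Tnni1 with -1.17 and -1.21. The defining markers Actc1 and Pln stood at 0 in every library, and 100% of the exonic length of both lies under another annotated gene. Of 8 atrial markers, 1 and 2 rose and 0 fell (medians 0.24 and 0.22), against 11.1% and 12.8% of all genes that rose. The most abundant of these, Myl4, did not pass the test (0.02 and -0.12), and Nppa rose by 1.59 and 1.76.

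Many markers of other cells rose, beside 11.1% and 12.8% of all genes in the first and second experiment. Of 7 epicardial markers, 6 and 6 rose (medians 1.00 and 1.14), led in abundance by Upk3b, and of 7 fibroblast markers 6 and 6 (1.03 and 0.95), led by Col3a1. Of 8 endothelial markers 3 and 3 rose and 0 and 1 fell (0.23 and 0.19). Over all libraries of an experiment, Pecam1 was the most abundant in the first and Npr3 in the second. In LIN9 KO of the second alone, Pecam1 averaged 243.7 CPM, against 214.8 to 241 CPM for Npr3. Of 6 smooth muscle markers 2 and 2 rose and 0 and 1 fell (0.52 and 0.64), with Acta2 as the most abundant. Acta2 itself did not pass the test in the first (0.06; edgeR, Benjamini-Hochberg adjusted p = 0.8) and fell in the second experiment (-0.32, SE 0.10; edgeR, adjusted p = 0.0229). Of 7 macrophage markers 6 and 4 rose (1.01 and 0.82), with Csf1r. Of 10 erythroid markers 9 and 10 rose (2.54 and 2.71), with Hbb-y as the most abundant, while Alas2 was at 0 in every library and lies wholly under other genes. The summed erythroid level was 10960, 7916 and 9198 CPM in the control and 90750, 46830 and 34880 CPM in the LIN9 KO libraries of the first experiment. In the second it was 5347, 4258 and 4389 CPM in the control, 21200, 30620 and 39000 CPM in LIN9 KO, 3640, 3335 and 4376 CPM in Sav1 KO and 30820, 19440 and 10690 CPM in double KO ventricles. Every library with Lin9 deleted was above every other of its experiment, and the spread within these groups was wide. Globin genes are a family of similar copies, so that the share of each copy is uncertain. The summed levels of all 8 marker lists are plotted by library, and those of the other lists were 2030 ± 137 against 4090 ± 157 CPM for fibroblast, 315 ± 12.3 against 599 ± 49.2 for epicardial, 1190 ± 142 against 1360 ± 222 for endothelial, 1620 ± 129 against 2250 ± 126 for smooth muscle, 81.4 ± 1.65 against 146 ± 20.2 for macrophage and 3380 ± 511 against 4580 ± 514 CPM for atrial markers (control against LIN9 KO of the first experiment; SD, n = 3). Their part in the values of the regulators was not tested.

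**Figure D5:**
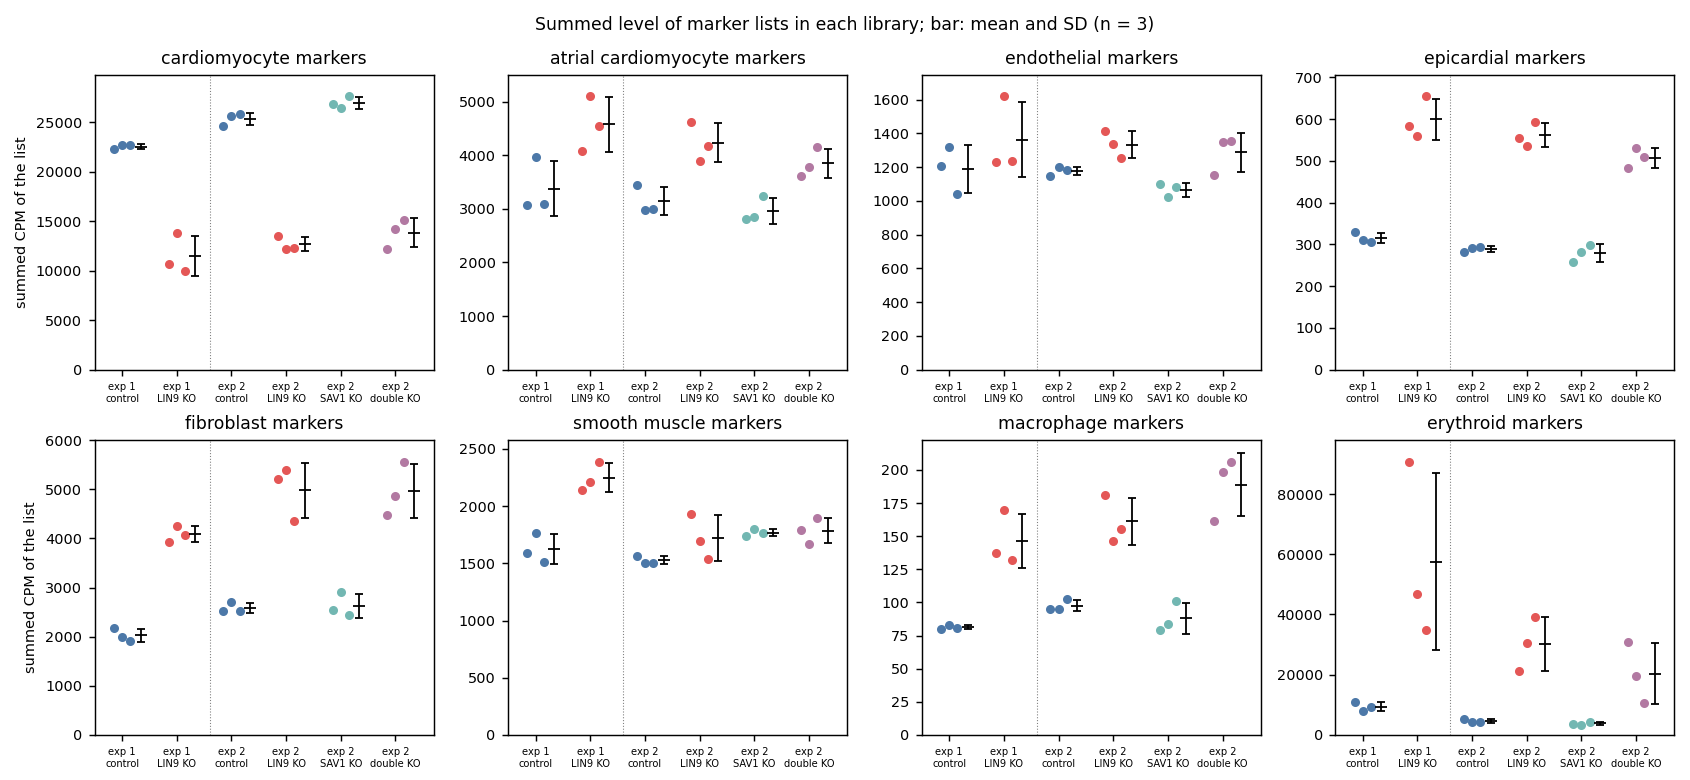
Summed CPM of each marker list (vertical axis, from 0) in each library by genotype group, with mean and SD of 3 libraries. Cardiomyocyte markers lie between 9986 and 15130 CPM in all libraries with Lin9 deleted and between 22260 and 27630 CPM in all others, and fibroblast, epicardial, macrophage and erythroid markers are higher where Lin9 is deleted.

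The genes most like Ppargc1a across the 18 libraries, each gene centred on its mean within an experiment, were Pkp2 (r = 0.961 of log2 CPM, over 10615 genes compared), Mtss1 (0.952), Myh7b (0.95), Lrrfip1 (0.95) and Qk (0.95). Pkp2 encodes a desmosomal protein of cardiomyocytes and Myh7b a myosin heavy chain. Those most like Perm1 were Ppp1r26 (0.884), Kremen1 (0.884), Kif1c (0.884), Doc2g (0.868) and Gpr157 (0.858). The libraries share genotype differences, depth and scaling, so that these r values describe a pattern over the 6 groups and no relation within a group.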

How the data were processed

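Counts were made and deposited by the authors, who aligned reads to mm10 using TopHat (2.1.0) and Bowtie2 at default settings, sampled libraries to the smallest number of mappable reads and counted per Ensembl gene (GRCm38.p6) with summarizeOverlaps. Libraries had been prepared from poly-A RNA. The authors' own tables of log2 fold changes and p-values were not used here, nor were the 4 ChIP-seq samples. Of the sample columns, 0 went unused, and 4 repeated identifiers were dropped from each table.

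Genes with a mean count above 1 (19752 and 17675 per experiment) were scaled by TMM factors. Differences came from the quasi-likelihood test of edgeR (4.0.16, in R 4.3.3; robust), 1 fit per experiment, with Benjamini-Hochberg adjustment over all genes tested and a threshold of 0.05. The interaction is the effect of Lin9 deletion in Sav1 KO minus that in Sav1 wt ventricles. The code was tested on simulated data. CPM use TMM-scaled library sizes. Alternatives were DESeq2 (1.42.0), RLE or no scaling, other count filters, the replicate number as a block, the compared groups alone and each library left out.

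The regulators and all gene lists were chosen with earlier results of these data known. Named are the 10 regulators, Lin9, Sav1, per pathway list up to 4 of the genes with the largest change past the threshold with the same sign in LIN9 KO of both experiments, per marker list the most abundant gene and up to 2 such genes, and the 5 genes most like Ppargc1a and Perm1, with at least 10 CPM. Ucp3 and genes at 0 were named after their values were seen.

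Replicate numbers were taken to pair libraries where all 3 correlations of deviations from group means exceeded 0.1, from the values alone. This paired LIN9 KO with control (0.307 to 0.687), Sav1 KO with control (0.136 to 0.374) and LIN9 KO with Sav1 KO (0.15 to 0.393, not compared) in the second experiment, but no group with double KO.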

Additional observations from a re-analysis of the deposited data

How the results depend on the processing

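In the 4 comparisons that include the deletion of Lin9, the 10 regulators stayed below 0 under every alternative tried, and no scaling moved the median of all genes by over 0.1. Calls of Ppara, Esrrb, Esrrg, Gabpa and Ppargc1a lost in single alternatives are given with these genes. Groups of 3 small libraries limit precision: 1 library decided several calls. Gene-level counts, the loss of reads where genes overlap and unstated embryo numbers bear on all values, and cell composition was not separated from expression.

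Leaving out 1 library at a time gave 2722 to 4223 genes (4131 with all) in LIN9 KO against control of the first experiment and 1 to 4 regulators in double KO against control. For Sav1 KO against control (3 genes), counts were 22 without a count filter, 31 with both groups alone and 0 to 2 with 1 library left out. For double KO against LIN9 KO (2 genes) they were 11 with DESeq2, 309 without a filter, 0 with filterByExpr, 0 with both groups alone and 0 to 378 with 1 library left out. Without a filter 1 regulator was called there, Esrrg (0.42; edgeR, Benjamini-Hochberg adjusted p = 0.0455), as it was in double KO against control (-0.36; edgeR, adjusted p = 0.0163). For the interaction (0 genes) they were 17 without a filter and 0 to 64 with 1 library left out.

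With the replicate block, paired for LIN9 KO or Sav1 KO against control of the second experiment, the genes called were 4370 and 2, and no call of a regulator changed. LIN9 KO and Sav1 KO, not compared with each other, met the pairing rule as well (r from 0.15 to 0.393, 6 of 6 libraries closest to their own number). The comparisons below did not meet it. The block gave 5001 genes in the first experiment (r from 0.0636 to 0.314, 4 of 6 libraries closest to their own number), 4488 in double KO against Sav1 KO (r from -0.0811 to -0.0212, 0 of 6), 84 against LIN9 KO (-0.118 to 0.172, 2 of 6) and 4022 against control (-0.118 to 0.0742, 1 of 6), and 0 for the interaction. No call of a regulator changed.

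Signs turned for uncalled values only, and the cause was not tested. The largest was the interaction of Ppara, 0.27 with all libraries and -0.004 without LIN9 KO replicate 1. The interaction of Ppargc1b was 0.0056 with DESeq2, 0.006 with RLE, 0.007 with library totals, 0.0026 without a filter and 0.0105 with filterByExpr. With 1 library left out, Sav1 KO against control ran from -0.0847 to 0.3164 (Ppara), -0.1537 to 0.0376 (Tfam), -0.0065 to 0.0368 (Nrf1), -0.0152 to 0.0804 (Gabpa) and -0.1465 to 0.0477 (Perm1). Double KO against LIN9 KO ran from -0.0451 to 0.2611 (Ppargc1a), -0.0891 to 0.0721 (Esrra) and -0.0341 to 0.1115 (Nrf1). The interaction ran from -0.1484 to 0.1463 (Ppargc1a), -0.1058 to 0.1084 (Ppargc1b), -0.004 to 0.4774 (Ppara), -0.1881 to 0.0341 (Tfam), -0.052 to 0.1066 (Nrf1) and -0.0114 to 0.1992 (Gabpa).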
